A study of Mus musculus with 2 samples.

Results

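The transcripts described here are long noncoding RNAs and host genes of small nucleolar RNAs (snoRNAs) measured in mDE6, a line of odontogenic epithelial cells from the mouse, with and without the GSK-3 inhibitor CHIR99021. The list held 7 genes, Malat1, Neat1, H19, Meg3, Gas5, Snhg1 and Snhg12, and a probe belonged to it when the array's own gene name equalled one of these symbols. By this rule 6 of the 7 genes had probes, 14 in all, among the 37074 gene names and 56605 distinct probes of the array. Malat1 had no probe under its symbol, its RefSeq accession or its synonyms, and it was not analysed here.

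Each condition, control and CHIR99021, had 1 array, and both were taken at 6 h from the unmodified cell line. The label of the control names DMSO as vehicle (written 0/1%DMSO), whereas the paper calls the control untreated. The label of the treated cells gives 5 mM CHIR99021. The unit in the paper is micromolar. Because each condition had 1 array, no difference below has a replicate check and there is no statistical test, and fewer expressing cells and less RNA per cell cannot be told apart.

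Long noncoding RNAs act without being translated. Neat1 is the RNA scaffold of paraspeckles, nuclear bodies that hold RNA-binding proteins, and is made as a short and a long form from the same start. Malat1, its neighbour on the chromosome, is enriched in nuclear speckles. H19 and Meg3 are imprinted RNAs transcribed from the maternal chromosome, at the clusters that also hold Igf2 and Dlk1. Gas5, Snhg1 and Snhg12 carry snoRNAs in their introns, which are cut out at splicing and guide chemical modification of ribosomal RNA. The spliced Gas5 and Snhg1 RNAs are known to be short-lived and to be removed by nonsense-mediated decay during translation. CHIR99021 blocks GSK-3 and thereby stabilises β-catenin, which acts on target genes with TCF and LEF factors.

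Each probe is an oligonucleotide of 60 bases. The probes of the 4 genes measured on both arrays are printed because the comparison of probes of 1 transcript rests on where each of them lies. They are given 5′ to 3′ as in the scanner files, with no part in capitals.
Gas5 A_55_P2740898: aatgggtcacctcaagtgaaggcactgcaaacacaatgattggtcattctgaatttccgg
Gas5 A_55_P2845828: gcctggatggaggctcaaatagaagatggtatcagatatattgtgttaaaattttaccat
Snhg1 A_55_P2117710: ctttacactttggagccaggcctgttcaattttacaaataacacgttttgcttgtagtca
Snhg12 A_66_P100249: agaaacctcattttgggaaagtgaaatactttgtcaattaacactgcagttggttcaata
Neat1 A_55_P2740113: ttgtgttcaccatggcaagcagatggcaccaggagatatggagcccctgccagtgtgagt
Neat1 A_65_P09473: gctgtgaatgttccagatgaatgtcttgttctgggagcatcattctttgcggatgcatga

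In mm9, the build of the files, the first Gas5 probe maps to chr1:162967641-162968147 on the forward strand. Its 60 bases thus span 507 bases of the genome and skip 447 of them, as a probe across an exon junction of spliced RNA does. The second Gas5 probe maps to chr1:162968590-162968649, on the forward strand without a gap. The Snhg1 probe lies at chr19:8798913-8798972 on the forward strand and the Snhg12 probe at chr4:131866864-131866922 on the forward strand. The Neat1 probes lie on the reverse strand of chromosome 19, A_55_P2740113 at chr19:5844378-5844437 and A_65_P09473 at chr19:5844123-5844182. The files name the gene of a probe but not its exon, and for Neat1 the accessions listed with A_55_P2740113 include both the short and the long form.

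Signals below are background-subtracted spot brightness in the scanner's arbitrary units, before any scaling. The log2 ratio is CHIR99021-treated over control cells after each array was divided by the 75th percentile of its spots, 487 for the control and 469 for CHIR99021. The error beside a log2 ratio combines the scanner software's error of both spots and covers the measurement of these arrays only, not the spread between cultures. The Z-score is the log2 ratio minus the mean, over the SD, of the 500 probes nearest in mean signal. A probe counted as higher where the ratio reached 1.5 and the Z-score 2.0 or more, and as lower where the ratio was 0.66 or less with a Z-score of -2.0 or less. Over the 28066 probes compared, those well above background on 1 or both arrays, 2.35% were higher and 2.72% were lower.

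Of the 14 probes, 6 were well above background on both arrays, 2 on 1 array and 6 on neither. Among the 8 that could be compared, 1 was higher (Snhg1), beside the 2.35% over all compared probes, and 0 were lower, beside 2.72%. The plot of signals on both arrays shows the order of brightness within each array, which does not rank the transcripts because probes hybridise differently.

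**Figure D1:**
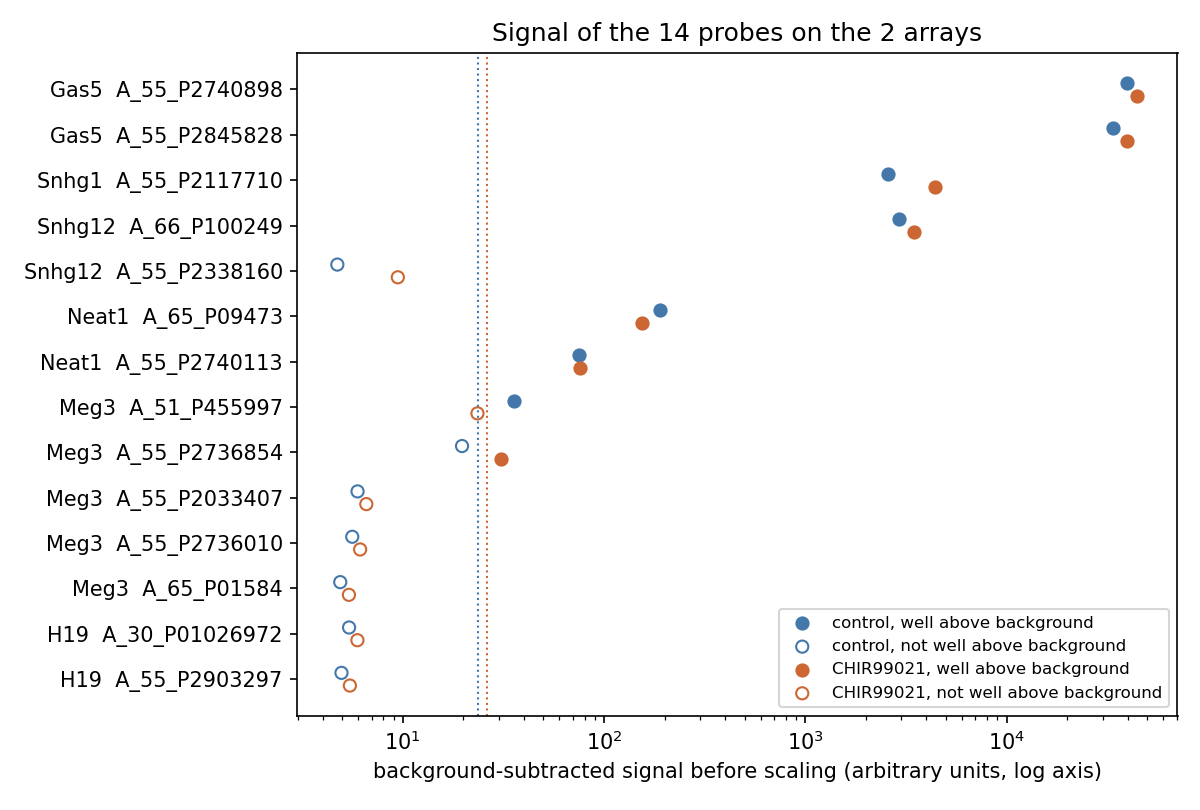
Background-subtracted signal of the 14 probes on the control array and the CHIR99021 array, on a log axis; filled points were well above background, open points were not, and dotted lines mark the lowest signal well above background on each array (23.7 for control, 26.3 for CHIR99021). The Gas5, Snhg1, Neat1 and 1 of the Snhg12 probes lie to the right of both lines on both arrays, the H19 probes lie to the left on both, and the Meg3 probes lie near or below the lines.

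Among the 3 listed snoRNA host genes, Snhg1 had the largest log2 ratio. Snhg1 contains the box C/D snoRNAs of the Snord22 and Snord25 to Snord31 group in its introns, and its spliced RNA has no known protein product. Its signal was 2584 in control and 4405 in CHIR99021-treated cells. The log2 ratio was 0.82 ± 0.20 (software error, 1 array per condition), which is 1.77-fold, and the Z-score was 2.42. The 500 probes nearest in signal had a mean log2 ratio of 0.05 with an SD of 0.32, and 5 of them, Snhg1 included, were at least as high. The spot lay in row 151 of 384 on the array and had 0 neighbouring spots with a large signal on a single array.

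Snhg12, the host of Snora44, Snora61 and Snord99, had, at A_66_P100249, a signal of 2912 in control and 3450 in CHIR99021-treated cells. This was a log2 ratio of 0.30 ± 0.20 (Z-score 0.79), and 100 of the 500 probes nearest in signal were at least as high. The criteria were not met. The second Snhg12 probe, A_55_P2338160, was designed on an expressed sequence tag that the files do not place on the genome. It read 4.73 in control and 9.45 in CHIR99021-treated cells, not well above background on either, so the higher reading of the first probe has no second measured probe beside it.

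Gas5, the host of box C/D snoRNAs between Snord44 and Snord81, was bright on both arrays at both probes. The junction probe A_55_P2740898 read 39613 in control and 44724 in CHIR99021-treated cells, a log2 ratio of 0.23 ± 0.20 (Z-score 0.71). The probe A_55_P2845828 read 33885 and 39618, a log2 ratio of 0.28 ± 0.20 (Z-score 0.86). Both probes were thus higher on the CHIR99021 array by about the software error, and neither met the criteria. Around the 2 Gas5 probes, the 500 probes nearest in signal had mean log2 ratios of 0.09 and 0.10, with SDs of 0.19 and 0.20. At least as high as the probe itself were 88 and 92 of the 500. The second probe lay past the middle row of the array (row 306), and near it 5 spots within 3 rows and columns were well above background on a single array with a ratio past 4-fold, and the first lay in row 169 with 0 such spots.

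**Figure D2:**
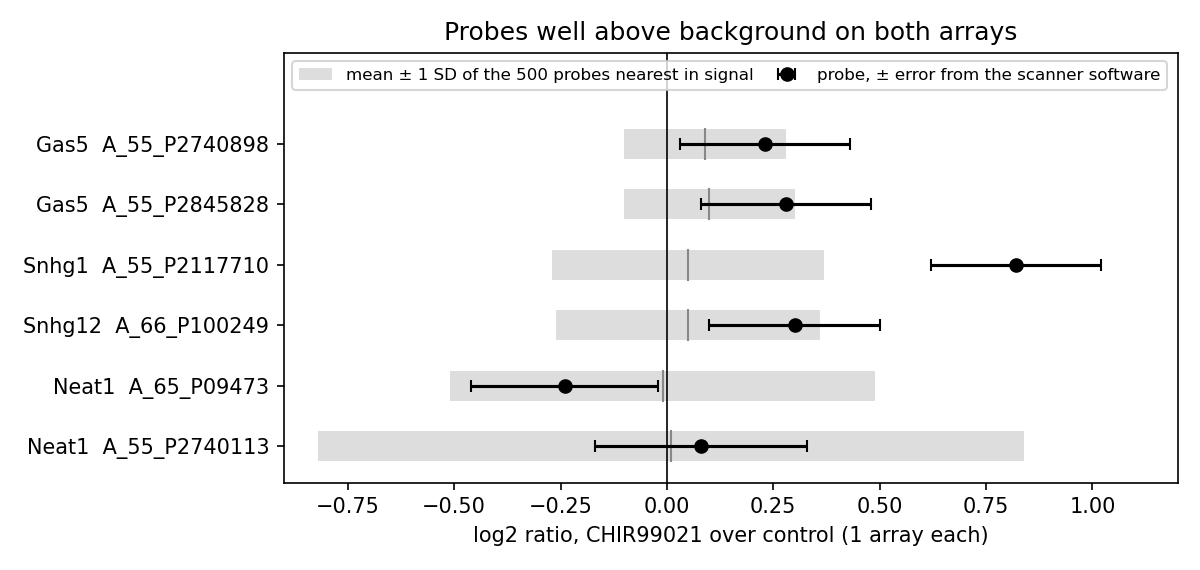
Log2 ratio of CHIR99021 over control for the 6 probes of the listed genes well above background on both arrays, with the scanner software's error as bars; grey boxes show the mean and 1 SD of the 500 probes nearest in signal. Snhg1 at 0.82 lies outside its grey box, and the other 5 probes lie inside theirs.

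Neat1 was dim at both of its probes. A_65_P09473 read 190 in control and 155 in CHIR99021-treated cells, a log2 ratio of -0.24 ± 0.22 (Z-score -0.45). A_55_P2740113 read 74.8 and 76.1, a log2 ratio of 0.08 ± 0.25 (Z-score 0.08). The 2 probes had opposite signs, and each log2 ratio lay within 1 SD of the mean of the 500 probes nearest in signal, which had SDs of 0.50 and 0.83. Both spots lay in the earlier rows of the array, with 0 neighbouring spots of the kind described for Gas5.

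To read how far probes of 1 transcript can differ, the 2 brightest probes of each gene measured on both arrays were compared over the whole array. For 2050 genes with both probes above the 75th percentile of signal, the absolute difference of log2 ratios had a median of 0.07 and a 90th percentile of 0.24. The Gas5 probes differed by 0.05, and 63.5% of these genes differed by at least as much. For 1131 genes with both probes below the 75th percentile, the median was 0.20 and the 90th percentile 0.68. The Neat1 probes differed by 0.32, and 32.8% of these genes differed by at least as much. The disagreement of the Neat1 probes was therefore within the range of other dim probe pairs, and the agreement of the Gas5 probes within that of other bright pairs.

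**Figure D3:**
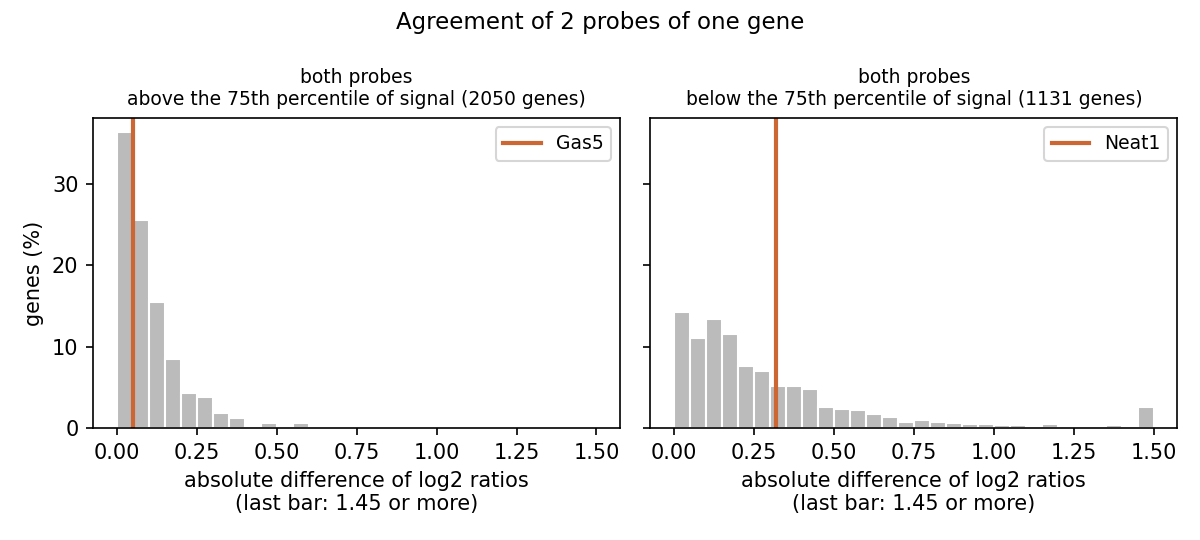
Absolute difference of log2 ratios between the 2 brightest probes of a gene, as a percentage of 2050 genes with both probes above the 75th percentile of signal (left) and 1131 genes with both below it (right); vertical lines mark Gas5 at 0.05 and Neat1 at 0.32. Gas5 lies below the median of 0.07 on the left, and Neat1 lies between the median of 0.20 and the 90th percentile of 0.68 on the right.

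The array held further probes at the Neat1 locus that the name rule did not take. A probe named NEAT1 in capitals, A_30_P01029720, lies at chr19:5842654-5842713 on the reverse strand, 1.7 kb downstream of the first Neat1 probe. It was far from background, with 4490 in control and 3501 in CHIR99021-treated cells, a log2 ratio of -0.31 ± 0.20 (Z-score -1.18). An unnamed probe of a reverse-strand region, A_30_P01019037, lies 9.8 kb downstream at chr19:5834543-5834602. It read 444 in control and 736 in CHIR99021-treated cells, a log2 ratio of 0.78 ± 0.21 (Z-score 2.16), and met the criteria for higher. The long form of Neat1 extends downstream of the short one on this strand, but the files give this region no gene name, so the probe was not counted with Neat1. The sequences of both are printed so that they can be set against the Neat1 forms.
NEAT1 A_30_P01029720: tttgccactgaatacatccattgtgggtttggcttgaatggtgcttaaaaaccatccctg
Region A_30_P01019037: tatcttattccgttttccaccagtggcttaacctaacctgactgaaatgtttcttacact

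Thus 3 of the 4 measured reverse-strand probes from this stretch had log2 ratios between -0.31 and 0.08, and the most downstream one had 0.78. The probes of the opposite strand near the first Neat1 probe had log2 ratios of 0.27 ± 0.21 and 0.10 ± 0.20, and a further one did not reach that level on any array. Upstream, Frmd8 had a log2 ratio of -0.09 ± 0.20, and Frmd8os, which lies antisense to it, had -0.18 ± 0.23. Farther downstream, between 20 and 60 kb from the Neat1 probes, the array held 2 unnamed region probes. A_30_P01033068 at chr19:5797234-5797293 on the forward strand read 95.6 and 121 (log2 ratio 0.39 ± 0.23), and A_30_P01020935 at chr19:5798256-5798315 on the reverse strand read 4311 and 4132 (log2 ratio -0.01 ± 0.20). In RefSeq's order of genes Malat1 lies on this side of Neat1, but neither probe carries a gene name and they were not assigned to it.

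**Figure D4:**
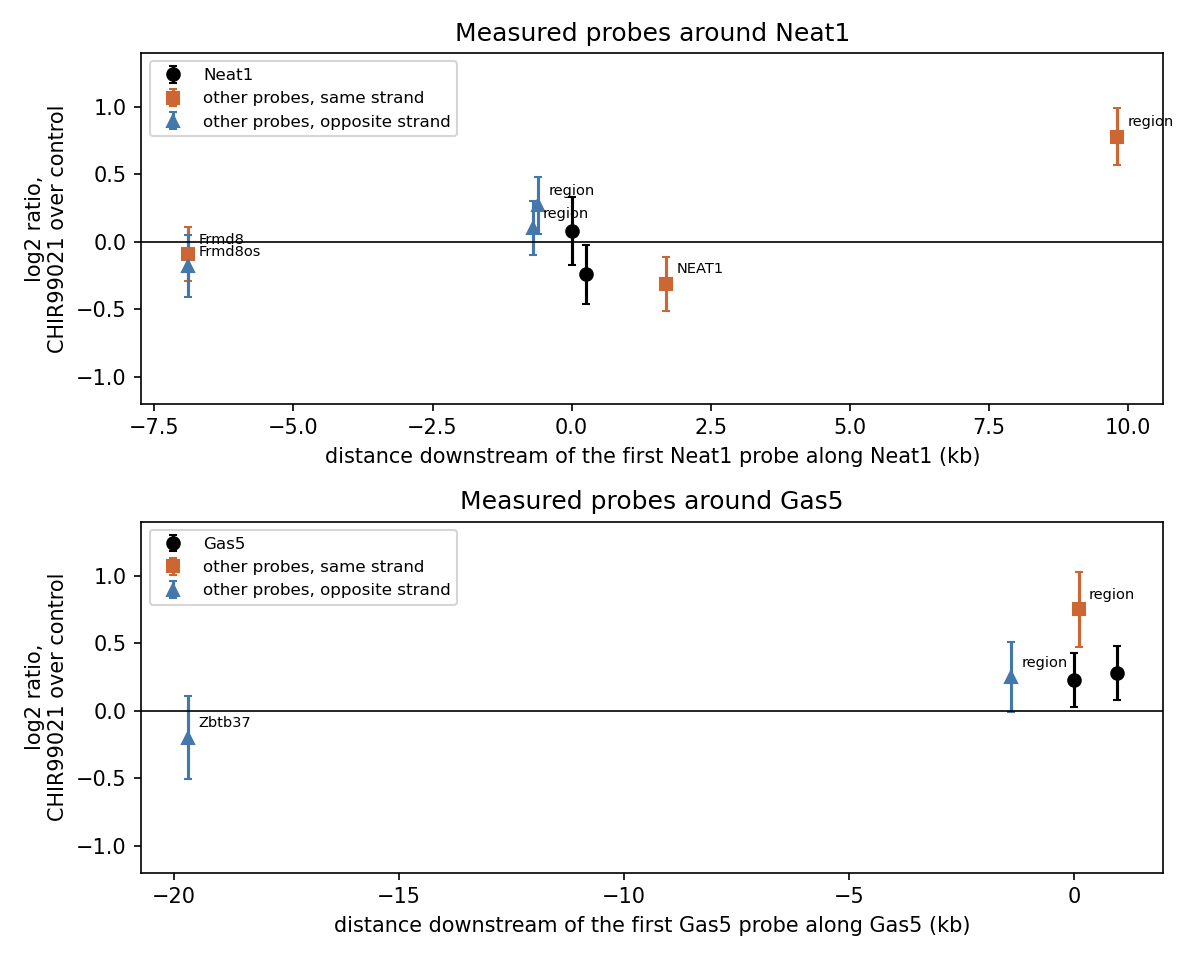
Log2 ratio of CHIR99021 over control, with the software error, for probes well above background on both arrays around Neat1 (top) and Gas5 (bottom), by distance in kb downstream of the first probe of that gene; black circles are the named gene, squares other probes of the same strand and triangles probes of the opposite strand. At Neat1 the region probe 9.8 kb downstream stands highest at 0.78, and at Gas5 the same-strand region probe stands highest at 0.75.

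At the Gas5 locus, an unnamed forward-strand region probe, A_30_P01023313, lies at chr1:162967716-162967775, wholly inside the 447 bases that the junction probe skips. It is printed because it reads the same strand as Gas5 in a part that this junction leaves out.
Region A_30_P01023313: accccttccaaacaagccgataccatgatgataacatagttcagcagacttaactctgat

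It read 52.0 in control and 84.4 in CHIR99021-treated cells, a log2 ratio of 0.75 ± 0.28 (Z-score 0.79), so that among probes this dim the difference was within 1 SD and the criteria were not met. A reverse-strand region probe read 61.1 and 70.2, a log2 ratio of 0.25 ± 0.26. A further forward-strand region probe 2.5 kb before the first Gas5 probe read 55.0 in control cells and 14.8, not well above background, after CHIR99021, at least 2.02-fold lower, in row 373. The 2 forward-strand region probes thus had opposite directions. On the opposite strand, 1 probe of Zbtb37, a zinc finger gene, had a log2 ratio of -0.20 ± 0.31. The other Zbtb37 probe, A_55_P2636221, met the criteria for higher only through an array on which it was not measured. Its control signal, 18.0, was not well above background, and its CHIR99021 signal was 193, at least 8.44-fold higher. It lay in row 352 with 5 neighbouring spots above background on a single array, and the part of that neighbourhood in its value was not tested.

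Genes around Snhg1 and Snhg12 were also measured. Slc3a2, which encodes the heavy chain of an amino acid transporter and lies next to Snhg1, had log2 ratios of -0.01, 0.15 and 0.17 at 3 probes, each ± 0.20. Wdr74, a ribosome biogenesis factor on the other side, had 0.44 and 0.39 at 2 probes, each ± 0.20. The next gene, 1700092M07Rik, had 1.16 ± 0.28 at a dim probe (49.2 and 106, Z-score 1.24). Around Snhg12, the Trnau1ap probes had 0.13, 0.16 and 0.19, the Taf12 probes had 0.21 and 0.62, and the measured Rab42 probe had -0.79 ± 0.23 (Z-score -1.34). In all, 28 probes of other names lay within 20 kb of the members' probes, and 25 of them were compared. Of these 2 were higher (the region probe downstream of Neat1 and Zbtb37) and 0 lower, beside 2.35% and 2.72% over all compared probes.

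The imprinted members were at or below the limit of detection. Both H19 probes, A_55_P2903297 and A_30_P01026972, read 4.96 and 5.41 on the control array and 5.46 and 5.95 on the CHIR99021 array. None was well above background, and the software had replaced each reading by a surrogate value, so no ratio is given. For Meg3, 3 of 5 probes read between 4.89 and 6.59 on both arrays and were likewise not above background. The other 2 Meg3 probes were each measured on 1 array. They are printed because they point in opposite directions.
Meg3 A_51_P455997: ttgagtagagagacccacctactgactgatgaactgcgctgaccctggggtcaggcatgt
Meg3 A_55_P2736854: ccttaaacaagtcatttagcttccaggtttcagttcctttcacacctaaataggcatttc

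A_51_P455997, at chr12:110809678-110809737, read 35.5 ± 6.50 (software error) on the control array. It read 23.5 ± 6.50, not well above background, on the CHIR99021 array, a limit of 1.30-fold lower. A_55_P2736854, at chr12:110783470-110783529, had a control signal of 19.7 ± 5.72, not well above background. Its CHIR99021 signal was 30.7 ± 6.80, a limit of 1.35-fold higher, and neither limit includes these errors. Neither met the criteria, with Z-scores of -0.30 and 0.47. The second spot lay in row 278 with 7 neighbouring spots above background on a single array, and the part of these in its value was not tested. Its sequence was found in the RefSeq promoter table (GRCm38.p6) at bases -138 to -79 before the later of the 2 Meg3 starts listed there, on the strand of Meg3. It was designed on a cDNA sequence and not on a RefSeq transcript. A limit this close to 1 leaves the size and the direction of any Meg3 difference unresolved.

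Other genes of these clusters were measured. Of 19 listed imprinted genes and neighbours at the H19 and Meg3 clusters, 11 were compared. By the criteria 1 was lower and 0 were higher, beside 2.72% and 2.35% over all compared probes. The median log2 ratio was -0.11 against 0.03 over all compared probes. Dio3, the thyroid hormone-inactivating deiodinase at the far end of the Meg3 cluster, read 360 in control and 89.7 in CHIR99021-treated cells, a log2 ratio of -1.95 (Z-score -3.86). Dlk1, the paternally expressed Notch ligand relative, read 60485 and 56359 (log2 ratio -0.05), and Igf2, the growth factor gene beside H19, read 3339 and 2769 (-0.22). The brightest genes of the list after Dlk1 were Cd81 (0.01) and Mrpl23 (-0.11).

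Over the 5 listed genes with a compared probe, the brightest probe of each gave a median log2 ratio of 0.23, and over the 4 measured on both arrays the median was 0.26. Over all 25025 probes measured on both arrays the median was 0.04 with an SD of 0.41, and 55.4% of them had a ratio above 1. The 3 snoRNA host genes all had ratios above 1, and Neat1 had a ratio below 1 at its brighter probe.

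Other snoRNA host genes were set beside them. The array named 12 further genes with the Snhg symbol, and 11 were compared. Their log2 ratios ran from -0.02 to 0.97 with a median of 0.23, and 0 were higher or lower by the criteria. A ratio above 1 was seen for 10 of 11, beside 55.4% of all probes measured on both arrays. The brightest were Snhg8, which read 17326 and 19646 (log2 ratio 0.23), Snhg6, which read 9118 and 12589 (0.52), and Snhg9, which read 6936 and 7090 (0.08). Snhg5, Snhg7 and Snhg18 had 0.12, 0.23 and 0.01. Of the dimmer ones, Snhg3 read 1529 and 2272 (0.62), Snhg20 read 1016 and 1304 (0.41), Snhg10 read 295 and 349 (0.29) and Snhg11 read 38.1 and 36.3 (-0.02). The largest value, 0.97 for Snhg4, came from a dim probe (33.9 and 64.3) with a Z-score of 0.79. Of the 11, Snhg11, Snhg18 and Snhg20 were read at spots in the earlier rows of the array, up to the middle row 192, and had -0.02, 0.01 and 0.41. The other 8 lay in the later rows. The Z-score of Snhg1, 2.42, was the highest among the Snhg-named genes, and Snhg3 followed with 1.88. The Snhg3 spot lay in row 259 with 4 neighbouring spots of the kind described for Gas5.

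The wider list of snoRNA host genes, which also holds protein-coding hosts, gave 19 compared genes with a median log2 ratio of 0.23. Of these 17 had a ratio above 1, beside 55.4% of all probes measured on both arrays. By the criteria 1 was higher and 0 were lower, beside 2.35% and 2.72% over all compared probes. The higher gene was Nop56, a core protein of box C/D snoRNPs whose gene also carries snoRNAs, with 24630 in control and 36413 in CHIR99021-treated cells (log2 ratio 0.62, Z-score 2.33). Its spot lay in row 259 with 2 neighbouring spots of the kind described for Gas5, and their part in its value was not tested. Among the brightest hosts, the ribosomal protein genes Rpl7a and Rps2 had log2 ratios of 0.12 and 0.06.

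For the snoRNAs, 13 probes were named Snord, Snora or Scarna. Whether such a probe read the mature snoRNA or unspliced host RNA was not tested. Of these 9 were measured on both arrays, with log2 ratios from -0.16 to 0.45 and a median of 0.17, and 0 met the criteria. Snora73a, carried by Snhg3, read 2832 and 3258 (log2 ratio 0.25 ± 0.20), against 0.62 for Snhg3. Snora74a, carried by Snhg4, read 53.2 and 70.3 (0.45 ± 0.28), against 0.97 for Snhg4. Snora78, carried by Snhg9, read 66.3 and 71.9 (0.17 ± 0.26), against 0.08. Scarna13, carried by Snhg10, read 127 and 110 (-0.16 ± 0.22), against 0.29, so that in this pair the signs were opposite. No probe was named for a snoRNA of Gas5, Snhg1 or Snhg12, so that host and guide could not be set side by side for the members.

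The proteins that package snoRNAs were measured as a list of 17 genes. All 16 on the array were compared, and 14 had a ratio above 1, beside 55.4% of all probes measured on both arrays. By the criteria 2 were higher and 0 were lower, beside 2.35% and 2.72% over all compared probes. The median log2 ratio was 0.50 against 0.03 over all compared probes, which were not matched to this list in signal. The 2 higher genes were Nop56 and Nolc1, a nucleolar chaperone of snoRNPs, which read 7257 and 11680 (log2 ratio 0.74, Z-score 2.36). Nhp2, of box H/ACA particles, read 18177 and 22018 (0.33), and the box C/D methyltransferase Fbl read 25864 and 32345 (0.38). Nop10 and Znhit3 had -0.07 and -0.04.

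**Figure D5:**
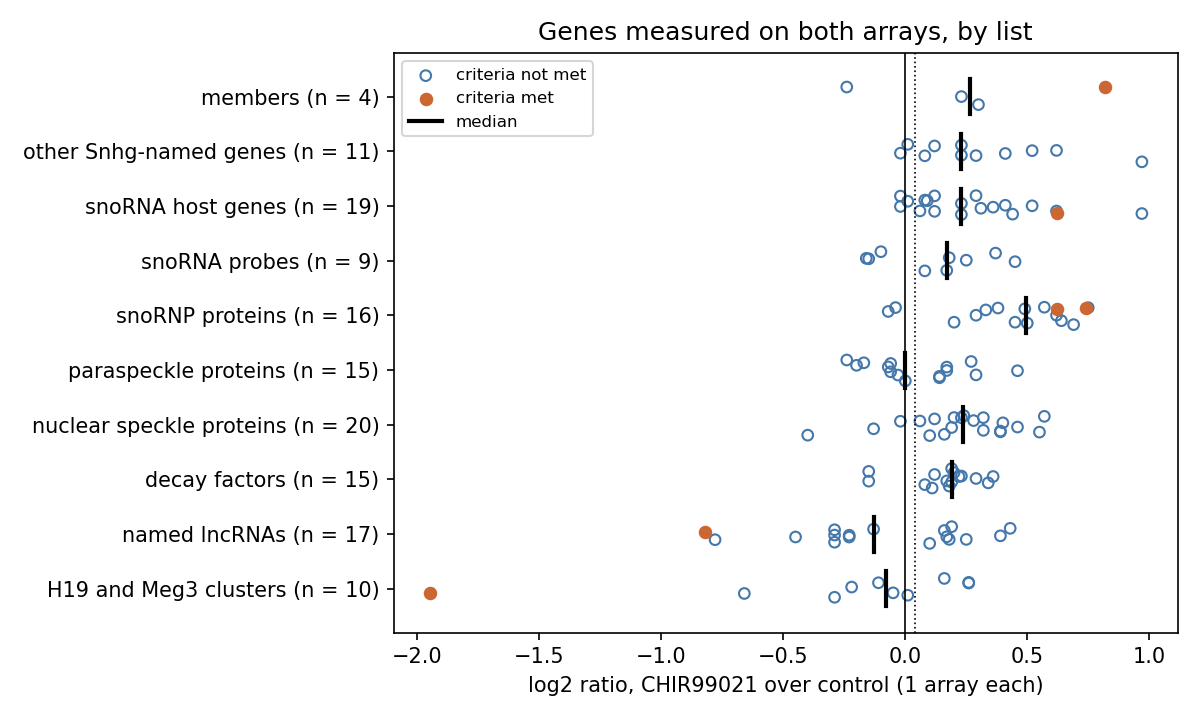
Log2 ratio of CHIR99021 over control for the listed genes measured on both arrays, beside the other gene lists and the snoRNA probes; each point is 1 gene at its brightest probe (for snoRNAs, 1 probe), filled where the criteria were met, thick lines are medians and the dotted line is the median of all probes measured on both arrays (0.04). The snoRNA-related lists have medians between 0.17 and 0.50, the paraspeckle list sits at 0.00, and the named lncRNAs and the H19 and Meg3 clusters lie below 0 at -0.13 and -0.08.

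The partner proteins of the nuclear RNAs were read in the same way, beside the 55.4% of all probes measured on both arrays with a ratio above 1. Of 15 paraspeckle proteins, which bind Neat1, all were compared, 7 had a ratio above 1, 0 were higher or lower and the median log2 ratio was 0.00. Nono, a core paraspeckle protein, read 18510 and 20075 (0.17), Hnrnpa1 read 20212 and 17017 (-0.20) and Smarca4 read 13731 and 15939 (0.27). Of 20 nuclear speckle proteins, 17 had a ratio above 1 and 0 were higher or lower, with a median of 0.23. Srrm2, Srrm1 and U2af1, the brightest of these, had 0.20, 0.39 and 0.46. Of 16 factors of nonsense-mediated decay, the pathway that removes spliced Gas5 and Snhg1, 15 were compared, 13 had a ratio above 1 and 0 were higher or lower, with a median of 0.19. Smg5, Upf3a and Magoh, the brightest, had 0.17, 0.18 and 0.36.

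Other named long noncoding RNAs formed a further list. Of 42 listed, 31 were on the array and 17 were compared. Of these, 8 had a ratio above 1, beside 55.4% of all probes measured on both arrays. By the criteria 1 was lower and 0 were higher, beside 2.72% and 2.35% over all compared probes. The median log2 ratio was -0.13. The lower one was Peg13, a paternally expressed imprinted RNA, which read 1917 and 1049 (log2 ratio -0.82, Z-score -2.60). Its spot lay in row 198 with 3 neighbouring spots of the kind described for Gas5, and their part in its value was not tested. The brightest were 2900097C17Rik with 0.25, Rn7sk, a regulator of transcription elongation, with -0.23 and Fendrr with -0.29. Whether the Snhg-named genes and the other long noncoding RNAs differ was not tested.

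The promoter table held windows, from 250 bases before to 50 after a start, for 5 of the listed genes. Words made of CTTTG followed by AA, AT, TA or TT, which TCF and LEF factors can bind, were searched on both strands and occur in 16.9% of 32851 windows. Among the listed genes with a window, only that of Snhg12 held such a word, and those of Gas5, Snhg1, Meg3 and Malat1 held none. The E-box CACGTG, present in 7.15% of windows, was in none of theirs. A word is a match of letters and not a binding site.

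The cell line was read against fixed marker genes. Of 9 epithelial markers 6 were compared. Trp63 (2306 and 2896) was well above background on both arrays, while Cdh1, Epcam and Krt8 were not on either. Krt14 (48.5 and 54.6) and Krt17 (62.4 and 59.8) were dim, with log2 ratios of 0.22 and -0.01. Krt5 was the 1 epithelial marker that met the criteria for higher (Z-score 2.88), beside 2.35% of all compared probes. It was well above background on the CHIR99021 array only (5.51 and 165, at least 7.24-fold higher). Its spot lay in row 379 with 3 neighbouring spots well above background on a single array, and their part in its value was not tested. Of 8 dental mesenchyme markers 7 were compared, and Col1a2 (270783 and 242601), Col1a1 (122712 and 116216) and Vim (52302 and 45883) were bright on both arrays, with log2 ratios of -0.11, -0.03 and -0.14. The other 4 had log2 ratios of 0.62 (Msx1), 0.63 (Twist1), -0.60 (Pax9) and -0.35 (Pdgfra), with Z-scores of 1.78, 1.67, -1.72 and -1.04, and 0 of the 7 met the criteria. Of 4 blood and endothelium markers 3 were compared and 0 met the criteria. Ptprc read 1709 and 1764 (log2 ratio 0.10), Cd68 read 579 and 691 (0.31), and Pecam1 read 29.9 in control cells and 19.2, which was not well above background, after CHIR99021. The part of any mixture of cell types in the values above was not tested.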

How the data were processed

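Total RNA was amplified, labelled with Cy3 and hybridised to 1 mouse array per condition; the paper names a human array, whereas the header gives a mouse design and mm9. Each spot's intensity was deposited after background subtraction (Feature Extraction 10.7.1.1 in the header, 9.5.1.1 in the submitters' processing notes), with no scaling between arrays, and a table of normalized intensity values whose method is not given in the sources used here. The deposited software error is an intensity too.

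From these, log2 intensities were set relative to the 75th percentile of each array's 59305 spots besides controls. Outlier spots were left out, spots of a probe averaged, and probes compared if well above background on 1 or both arrays; 0 spots were saturated. Of the spots, 49.8% (control) and 48.3% (CHIR99021) were well above background. For a probe measured on 1 array, the limit was set against the other array's lowest signal well above background, or against the probe's own signal there if that was higher. Such a limit, written as at least, leaves out the software error of the readings. A spot could also read above that lowest signal without being well above background, as a Rab42 probe did at 32.0 on the CHIR99021 array. The criteria used the computed ratio. A gene was read at its brightest compared probe. Among 282 probes printed 10 times, the SD of the log2 ratio between spots had a median of 0.03. The number of arrays limits the precision. Named were all probes of the members, genes of each list that met the criteria or were among its 3 brightest, and probes within 20 kb that met the criteria; further values were chosen after they were seen, and some genes are not reported here. Members and lists were chosen with earlier results of these data known. The criteria were tried on simulated data whose noise followed the spread of probes on these arrays. That simulation held no spread between cultures, so it cannot show how the calls would hold in further cultures. Python 3.11.15, numpy 2.4.6, pandas 2.3.3, matplotlib 3.10.9, R 4.3.3 and limma 3.58.1 were used; accessions and promoters came from RefSeq (GRCm38.p6), where 5 of the 6 genes with probes had a matching accession and Gas5 had none.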

Additional observations from a re-analysis of the deposited data

How the results depend on the processing

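No paired analysis was possible because a condition is a single array, and no array can be left out. The median log2 ratio of the listed genes, 0.23, was 0.15 with quantile normalization, 0.26 with median scaling, 0.17 with cyclic loess, 0.36 with spike-in scaling, 0.18 without scaling, 0.18 with the percentile over detected probes, 0.14 in the authors' normalized table and 0.26 over genes measured on both arrays. With the earlier rows of the array only it was -0.01, since Snhg12 has no measured probe there. The count of higher probes was 0 with 1 mean and SD over all probes for the Z-score and 2 by the ratio alone (Snhg1 and Meg3 A_55_P2736854, the latter from a computed ratio); it was 1 under the other alternatives, and the count of lower probes was 0 under each of them. Snhg1 met the criteria under 15 of 16 alternatives, with a log2 ratio from 0.76 to 0.95, as did the region probe downstream of Neat1, from 0.71 to 0.91. The log2 ratio ran from 0.14 to 0.36 and from 0.18 to 0.41 for the Gas5 probes, from 0.24 to 0.43 for Snhg12, and from -0.29 to -0.11 and from 0.02 to 0.21 for the Neat1 probes, without a change of sign. Spike-in scaling gave the highest value of each and moved the median of all compared probes from 0.03 to 0.16. The median over the other Snhg-named genes was 0.01 with the earlier rows only. Low signal limits H19 and Meg3.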
